A study of Rattus norvegicus with 39 samples.

Results

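Gabra6 (ENSRNOG00000003569), Fat2 (ENSRNOG00000012575), Cbln1 (ENSRNOG00000000010), Neurod1 (ENSRNOG00000005609), Zic2 (ENSRNOG00000014397) and Car8 (ENSRNOG00000005669) are marker genes of the cerebellum, and their levels were examined in every library of rat cerebral cortex. These 6 genes were chosen by name out of 26123 genes listed, and all 6 were among the 17230 genes tested. They were chosen with results of these libraries known, above all their high levels in AL rats of 28 months, so that their levels are given as a description. The comparisons that hold the 28 m AL libraries are given without a p-value. The comparisons at 6 and 12 months rest on other rats and other libraries, although those libraries were also at hand when the genes were chosen.

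The cerebellar cortex is built around granule cells, which are small excitatory neurons, and Purkinje cells, which are large inhibitory neurons and its only output. Granule cell axons, the parallel fibres, form synapses on Purkinje cell dendrites. Gabra6 encodes the alpha6 subunit of the GABA-A receptor, which in the brain is largely found on granule cells. Fat2 encodes an atypical cadherin of the parallel fibres, and Cbln1 a protein secreted by granule cells that organises their synapses on Purkinje cells. Neurod1 and Zic2 encode transcription factors of the granule cell lineage, and Neurod1 is also used by neurons of the dentate gyrus. Car8 encodes a carbonic anhydrase-related protein without the enzyme's activity, which is abundant in Purkinje cells and binds the inositol trisphosphate receptor Itpr1.

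The study set ageing and diet against each other in the cerebral cortex of male BN rats (SubstrainBN/SsNOlaHSD), with 39 libraries in 13 groups of 3. Each library is a pool of RNA from 2 rats, 78 rats in all, and pools are numbered 1 to 39. All rats were fed ad libitum until 2 months of age. From then on they were fed ad libitum (AL), were calorically restricted (CR, at 55% of the food intake of controls) or were fed ad libitum with α-lipoic acid at 1.5 g/kg (AL+LA). The groups 6 m AL, 12 m AL and 28 m AL (pools 1 to 9) and 6 m CR, 12 m CR and 28 m CR (pools 10 to 18) were killed at 6, 12 and 28 months. The groups 12 m AL+LA (pools 37 to 39) and 28 m AL+LA (pools 34 to 36) had the supplement throughout. The remaining groups switched diet at 12 months and were killed at 28 months, namely AL>CR (pools 19 to 21), AL+LA>CR (pools 22 to 24), CR>AL (pools 25 to 27), CR>AL+LA (pools 28 to 30) and CR>CR+LA (pools 31 to 33). The 9 AL pools are set below against the 30 libraries of the 10 groups on other diets. The spread between pools of 2 rats is smaller than that between rats would be, and in such bulk tissue fewer cells of a type and less RNA per cell cannot be told apart.

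Between 494091 and 5966979 reads per library lay on genes (median 4005959). Pool 5 of 12 m AL had the fewest, so that 1 of its reads was worth 2.03 CPM (the standard count per library size). All levels are CPM after scaling by the trimmed mean of M-values (TMM). Fezf2 and Neurod6, transcription factors of cortical projection neurons, were detected in all 39 libraries. The 4 genes of a list of cortical projection neuron markers that had a name summed to 123 to 187 CPM in the 9 AL pools and to 115 to 353 CPM (median 255) in the other 30 libraries. The share of reads that did not align was 27.5% to 36.1% in the 9 AL pools and 34.1% to 43.2% in the other 30, and its part in the results below was not tested. No pair of pools of a group agreed within sampling noise (lowest chi-square per degree of freedom 2.98), so every library was counted.

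The sequences upstream of the transcription start were at hand for 4 of the 6 genes, Gabra6, Fat2, Neurod1 and Zic2 (RefSeq, GRCr8). Those of Gabra6 and Fat2 are shown because these genes varied most between pools and were high in the same ones. The 250 bases before the start of Gabra6 lie at chr10:27327235-27327484 and those of Fat2 at chr10:39956903-39957152, both on the minus strand, written 5′ to 3′ with matches in capitals.
Gabra6: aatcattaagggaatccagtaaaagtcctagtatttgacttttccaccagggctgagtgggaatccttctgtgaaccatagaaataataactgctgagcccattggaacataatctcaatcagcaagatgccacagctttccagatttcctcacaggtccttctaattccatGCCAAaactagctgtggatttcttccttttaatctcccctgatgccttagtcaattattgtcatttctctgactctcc
Fat2: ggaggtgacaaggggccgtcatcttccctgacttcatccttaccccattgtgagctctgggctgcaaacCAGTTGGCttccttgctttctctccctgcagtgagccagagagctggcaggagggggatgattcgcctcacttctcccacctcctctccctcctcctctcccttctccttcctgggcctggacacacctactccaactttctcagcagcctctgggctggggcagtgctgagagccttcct
The capitals mark matches, on either strand, to the E-box CANNTG, which basic helix-loop-helix factors such as Neurod1 recognise, and to TTGGC, a half-site of the nuclear factor I family. Gabra6 held 0 E-boxes and 1 half-site. Fat2 held 1 of each, overlapping in the capitals. Neurod1 held 1 E-box and 0 half-sites, and Zic2 held 0 of both. Among 33465 upstream sequences of the same length, 65.5% held the E-box letters and 40.3% those of the half-site, so that these matches are a description only.

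Gabra6 was high in some pools of each AL group and near the level of the other diets in the rest. Its levels were 4.97, 337 and 1.86 CPM in pools 1, 2 and 3 of 6 m AL. At 12 months they were 1.10, 126 and 629 CPM in pools 4, 5 and 6, and at 28 months 592, 0.29 and 531 CPM in pools 7, 8 and 9. Pools 2, 5, 6, 7 and 9 were high, with 62 to 2901 reads each, while pools 1, 3, 4 and 8 held 1 to 21 reads. In the 30 libraries of other diets Gabra6 ranged from 0 to 32.5 CPM with a median of 0.80 CPM, which is 3 reads, and 16 of the 30 held at most 3 reads. The 4 libraries at 0 reads were pools 10, 21, 30 and 34, where 3 reads would be 0.665 to 1.18 CPM. The 4 low AL pools were therefore within the range of the other diets and the 5 high ones above all of it.

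Fat2 was 6.39, 255 and 0.80 CPM in the 6 m AL pools. It was 2.74, 134 and 721 CPM in the 12 m AL pools and 288, 1.74 and 382 CPM in the 28 m AL pools, in the order of the pool numbers. The same 5 pools were high as for Gabra6. The 30 other libraries ran from 0.70 to 25.5 CPM with a median of 2.68 CPM.

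**Figure D1:**
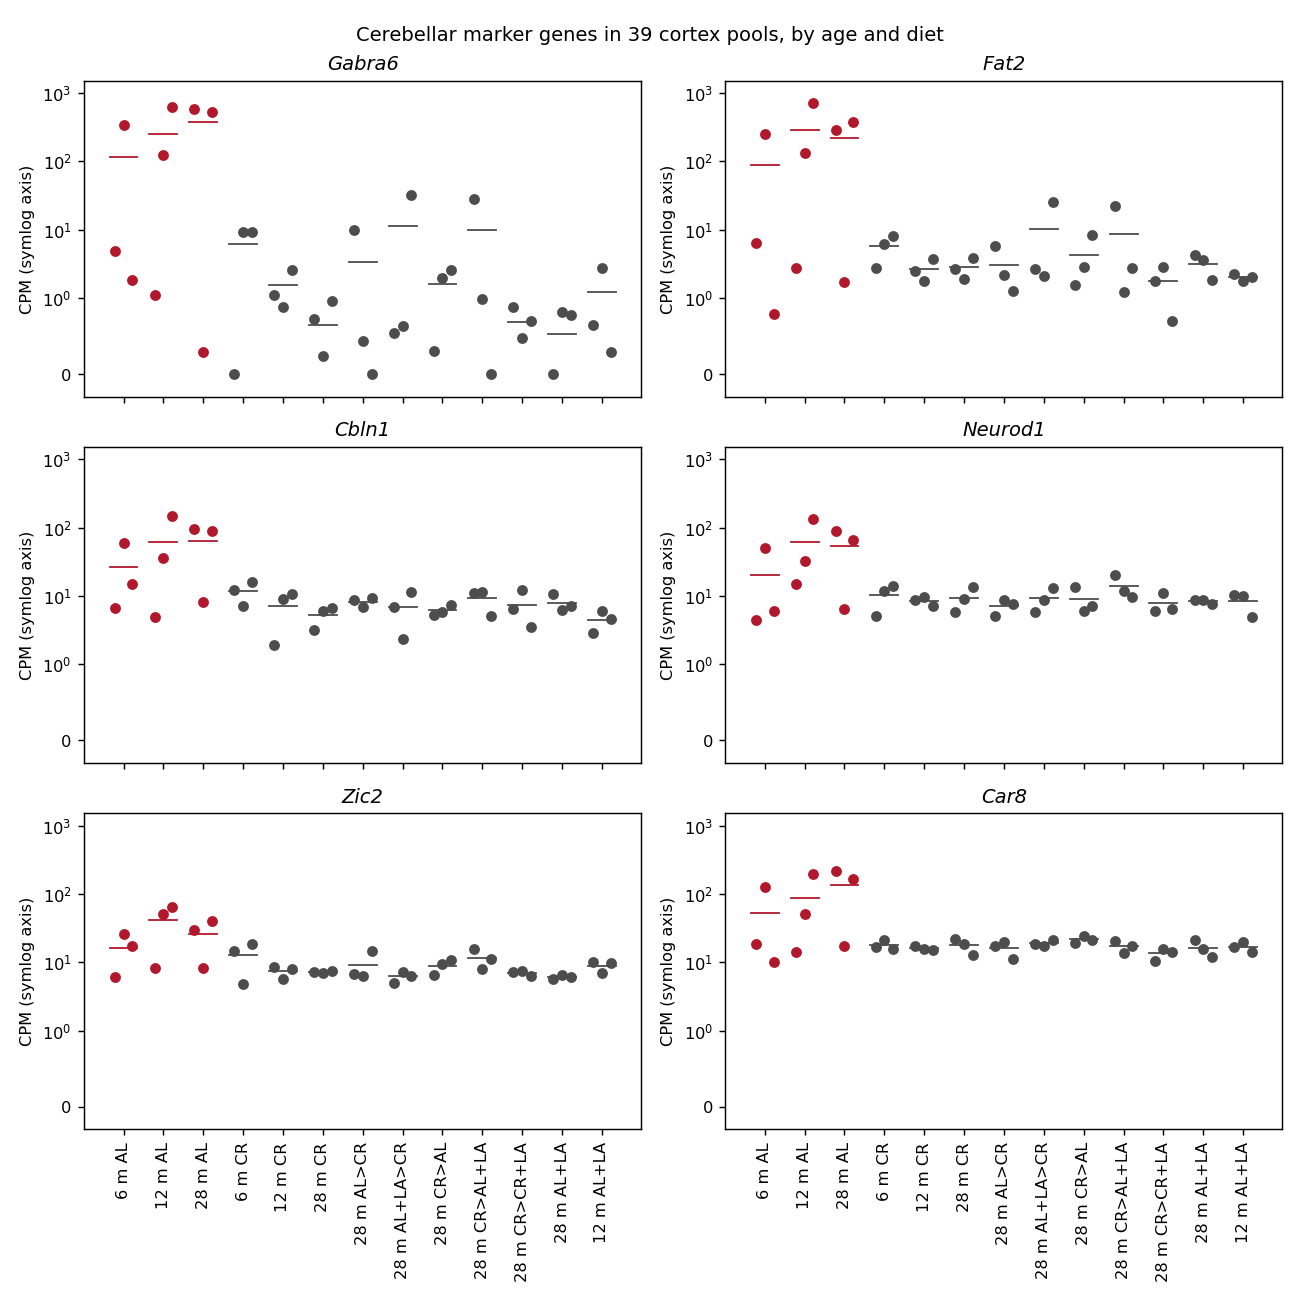
Level of each of the 6 genes in the 39 pools, in CPM on a symmetric log axis (linear near 0), by group. Points are pools, red for AL and grey for the other diets, and bars are group means over 3 pools. In each AL group the points split, with Gabra6 at 126 to 629 CPM in pools 2, 5, 6, 7 and 9 and at 0.29 to 4.97 CPM in pools 1, 3, 4 and 8.

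Cbln1, the secreted synaptic organiser, was 6.63, 59.2 and 14.9 CPM in the 6 m AL pools. It was 4.94, 36.6 and 146 CPM in the 12 m AL pools and 95.3, 8.12 and 88.2 CPM in the 28 m AL pools. The other diets ranged from 1.95 to 15.9 CPM (median 6.82). Unlike Gabra6, Cbln1 was thus present at a low level in every library (at least 7 reads), and the 5 high pools stood above that level.

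Neurod1 was 4.50, 50.3 and 6.10 CPM in the 6 m AL pools, 14.8, 32.5 and 135 CPM in the 12 m AL pools and 89.0, 6.38 and 65.3 CPM in the 28 m AL pools. The other diets ranged from 4.88 to 20.3 CPM (median 8.79). Zic2 was 6.15, 25.9 and 17.2 CPM in the 6 m AL pools, 8.23, 50.8 and 65.0 CPM in the 12 m AL pools and 29.8, 8.12 and 40.0 CPM in the 28 m AL pools, against 4.88 to 18.4 CPM (median 7.27) in the other diets. Both transcription factor genes had the same 5 pools on top, with Zic2 having the smallest gap: pool 2 at 25.9 CPM lay next to pool 12 of 6 m CR at 18.4 CPM.

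Car8, the Purkinje cell gene, was 18.2, 128 and 10.1 CPM in the 6 m AL pools, 13.99, 50.8 and 195 CPM in the 12 m AL pools and 218, 17.4 and 164 CPM in the 28 m AL pools. The other diets ranged from 10.4 to 24.4 CPM (median 17.2). Outside the high pools Car8 was the steadiest of the 6 genes, with a biological coefficient of variation of 0.159 over the 30 libraries of other diets, where the median gene had 0.157. Over all 39 libraries its coefficient was 0.492, and 91.5% of the genes tested varied less. For Gabra6 the coefficient was 1.02 over the 30 libraries and 1.25 over all 39, where 99.9% of the genes varied less.

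All 6 genes stood above all 30 libraries of other diets in pools 2, 5, 6, 7 and 9. In pool 2 of 6 m AL 12.6% of all genes tested did so, in pools 5 and 6 of 12 m AL 16.6% and 13.7%, and in pools 7 and 9 of 28 m AL 10.5% and 10.8%. In pools 1, 3, 4 and 8 none of the 6 genes did, where the shares of all genes were 15%, 13.6%, 8.64% and 7.49%. The high pools were thus 1 of 3 at 6 months and 2 of 3 at 12 and at 28 months. Their unaligned reads (27.5% to 36.1%) overlapped those of pools 1, 3, 4 and 8 (30.4% to 32.97%).

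Leaving out Gabra6, whose median in the other diets rests on 3 reads, the genes stood 2.95 to 50.2 times above their median of the other diets in pool 5 and 3.56 to 95.2 times in pool 2. The range was 4.10 to 108 times in pool 7, 5.51 to 143 times in pool 9 and 8.95 to 269 times in pool 6. Fat2 had the highest ratio in each of the 5 pools. The lowest was that of Zic2 in pools 2, 6, 7 and 9 and that of Car8 in pool 5, where Car8 and Zic2 each rested on 25 reads.

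**Figure D2:**
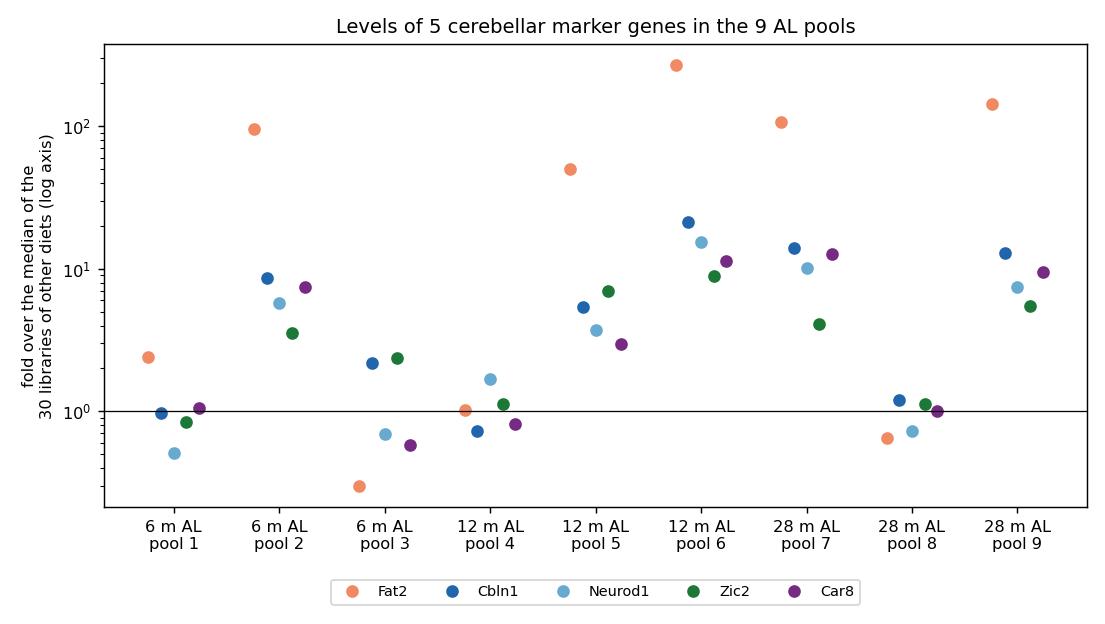
Level of 5 of the genes in each of the 9 AL pools as a ratio to the median of the 30 libraries of other diets, on a log axis with a line at 1. Each point is 1 gene in 1 pool, and in pools 2, 5, 6, 7 and 9 all points lie between 2.95 and 269, with Fat2 highest.

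The high pools did not hold the 6 genes in 1 fixed proportion. The level above the median of the other diets was divided by the same quantity in pool 7. In pool 6 this gave 0.88 for Car8 and 1.06 for Gabra6, 1.57 for Cbln1 and 1.58 for Neurod1, and 2.52 for Fat2 and 2.56 for Zic2. In pool 9 it ran from 0.70 for Neurod1 to 1.46 for Zic2.

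Fat2 and Gabra6 had enough reads to compare their proportion pool by pool. Fat2 made up 32.8% of the reads of both genes in pool 7 (exact 95% binomial interval 31.4 to 34.2, 4314 reads) and 41.8% in pool 9 (40.3 to 43.4, 3942 reads). It made up 43.1% in pool 2 (40.7 to 45.4, 1739 reads) and 53.4% in pool 6 (51.7 to 55.1, 3239 reads). The intervals of pools 6 and 7 did not overlap each other or those of pools 2 and 9. In the shallow pool 5 it was 51.6% (42.6 to 60.5, 128 reads). These intervals cover counting error only.

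Smaller peaks of both genes were seen in single libraries of other diets. Pool 24 of AL+LA>CR held 32.5 CPM of Gabra6 and 25.5 CPM of Fat2, and pool 28 of CR>AL+LA 28.5 and 22.5 CPM. Fat2 made up 44% of the reads of both genes in pool 24 (37.01 to 51.2, 200 reads) and 44.1% in pool 28 (36.8 to 51.5, 186 reads). Pools 11 and 12 of 6 m CR and pool 19 of AL>CR followed, with 9.36, 9.40 and 9.87 CPM of Gabra6. Gabra6 passed 5 CPM in those 5 of the 30 libraries only. In pool 28 Neurod1 also had its highest level of the 30 libraries (20.3 CPM), and in pool 12 Cbln1 (15.9 CPM) and Zic2 (18.4 CPM) had theirs. Not every gene rose in these pools. Zic2 was 6.38 CPM in pool 24 and 4.88 CPM, the lowest of the 30, in pool 11 (median 7.27 CPM). Car8 was 15.5 CPM in pool 12 (median 17.2 CPM).

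Over the 30 libraries of other diets Pearson's r between Gabra6 and Fat2 on the log2(CPM + 1) scale was 0.843 and Spearman's rho 0.46. Without pools 24 and 28 r was 0.647 over 28 libraries. Over all 15 pairs of the 6 genes r ran from −0.122 to 0.843 in these 30 libraries, with a median of 0.261. Libraries share their depth and scaling across genes, and since the 5 high AL pools form a separate cluster, no r over all 39 libraries is given for the pairs.

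**Figure D3:**
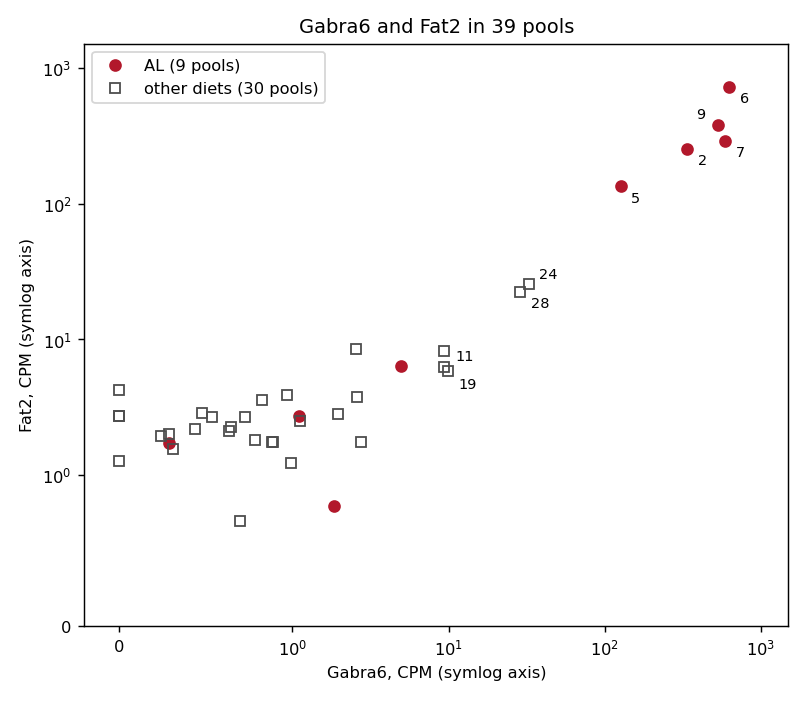
Fat2 against Gabra6 in the 39 pools, both in CPM on symmetric log axes (linear near 0). Red points are the 9 AL pools and open squares the 30 pools of other diets. Pools 2, 5, 6, 7 and 9 lie apart at over 126 CPM of Gabra6, pools 24 and 28 at 28.5 to 32.5 CPM, and pools 11, 12 (unlabelled beside 11) and 19 at 9.36 to 9.87 CPM.

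By group mean the 3 AL groups came first for each of the 6 genes, with SDs from below to above the mean. At 6, 12 and 28 months of AL, Gabra6 averaged 114 ± 192, 252 ± 332 and 374 ± 325 CPM (SD, n = 3), and 0.53 to 11.2 CPM in the other 10 groups. Fat2 averaged 87.3 ± 145 CPM, 286 ± 382 CPM and 224 ± 198 CPM in the AL groups and 1.78 to 10.1 CPM in the others. Cbln1 averaged 26.9 ± 28.3 CPM, 62.5 ± 73.9 CPM and 63.9 ± 48.4 CPM, against 4.51 to 11.7 CPM. Neighbours in the order of the 13 groups differed by less than the larger of their SDs in 12 of 12 pairs for each gene, the step from the lowest AL group to the next group included.

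Neurod1 averaged 20.3 ± 26.02 CPM, 60.9 ± 65.1 CPM and 53.5 ± 42.5 CPM (SD, n = 3) in 6 m AL, 12 m AL and 28 m AL, against 7.18 to 14.01 CPM in the other groups. Zic2 averaged 16.4 ± 9.88 CPM, 41.4 ± 29.6 CPM and 25.99 ± 16.3 CPM, against 6.11 to 12.6 CPM. Car8 averaged 52.1 ± 65.8 CPM, 86.5 ± 95.4 CPM and 133 ± 104 CPM, against 13.5 to 21.6 CPM. The highest group on another diet was 6 m CR for Cbln1 and Zic2, AL+LA>CR for Gabra6 and Fat2, CR>AL+LA for Neurod1 and CR>AL for Car8.

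At 12 months all 6 genes were lower in CR than in AL, with 2.16% of all genes tested called by edgeR's quasi-likelihood test at an adjusted p under 0.05 and 1.43% called lower. The log2 fold change was −7.36 ± 1.11 (SE) for Gabra6 and −6.76 ± 1.02 for Fat2. It was −3.13 ± 0.67 for Cbln1, −2.91 ± 0.49 for Neurod1, −2.48 ± 0.51 for Car8 and −2.37 ± 0.47 for Zic2. The edgeR adjusted p ran from 0.000686 for Fat2 to 0.0116 for Cbln1, while DESeq2 called 2 of the 6 genes (332 of 17230 genes called). Since pool 4 of 12 m AL was low, the pools of the groups did not overlap for Neurod1 only, where 19.3% of all genes did not overlap.

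AL+LA at 12 months gave the same picture against AL, with all 6 genes lower (3.17% of all genes called, 1.47% lower). The log2 fold change was −7.46 ± 1.16 (SE) for Gabra6, −7.18 ± 1.08 for Fat2 and −3.78 ± 0.68 for Cbln1. For Neurod1 it was −2.91 ± 0.52, for Car8 −2.40 ± 0.52 and for Zic2 −2.12 ± 0.47. The edgeR adjusted p ran from 0.000804 to 0.0133, while DESeq2 called 3 of the 6 genes (423 of 17230 genes called). Pools did not overlap for Neurod1 and Fat2 (20.6% of all genes). Both comparisons share the 12 m AL libraries. Between 12 m AL+LA and 12 m CR themselves none of the 6 genes was called by edgeR (0 also at an unadjusted p under 0.05), where 0.255% of all genes were, and DESeq2 gave no adjusted p for any of the 6.

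Both 12-month comparisons were also fitted without pools 5 and 6. These are the 12 m AL pools high in the 6 genes, so leaving them out fixes the direction in which the values move. Without these pools none of the 6 genes was called in either comparison by edgeR (1 in each, Neurod1, at an unadjusted p under 0.05), with 1.4% and 2.99% of all genes called. Against CR the log2 fold change was then 0.47 ± 1.08 (SE) for Gabra6, −0.037 ± 0.75 for Fat2, 0.57 ± 0.60 for Cbln1, −0.81 ± 0.37 for Neurod1, −0.15 ± 0.44 for Zic2 and 0.20 ± 0.33 for Car8. The fits without pools 5 and 6 keep 1 pool of 12 m AL, which is assumed to vary like the pools of the other group. Without pool 6 alone 2 of the 6 genes were called in each comparison (381 of 17230 genes against CR and 494 against AL+LA).

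**Figure D4:**
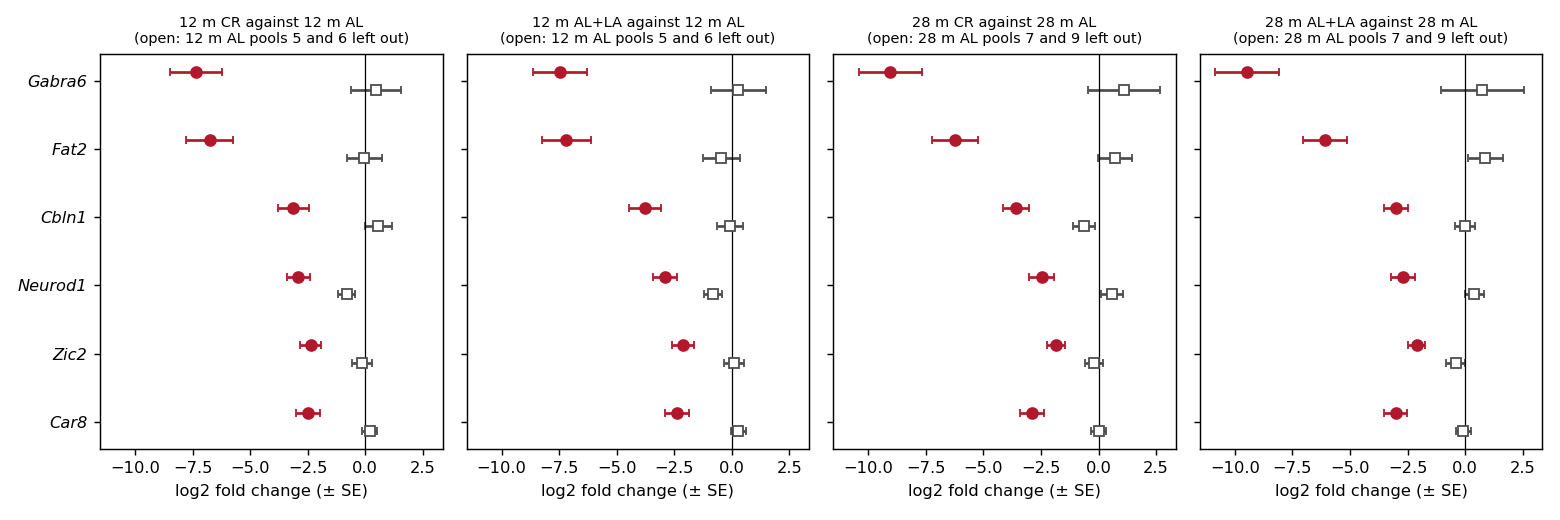
Log2 fold change of each of the 6 genes (points, bars ± SE from edgeR) in CR and AL+LA against AL, at 12 and at 28 months. Filled points are from all 6 pools and lie at −9.46 to −1.85, open squares are from fits without AL pools 5 and 6 (12 months) or 7 and 9 (28 months) and lie within −0.81 and 1.11.

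At 6 months CR was set against AL with pool 2 as the only high AL pool. None of the 6 genes was called by edgeR (4 at an unadjusted p under 0.05) or by DESeq2, which gave 2 of them no adjusted p, while edgeR called 2.2% of all genes. The log2 fold changes ran from −4.16 ± 1.24 (SE, edgeR adjusted p = 0.0983) for Gabra6 and −3.93 ± 1.15 (0.0907) for Fat2 to −0.43 ± 0.46 (0.765) for Zic2. Without pool 2 all 6 changes were positive and 0 of the 6 genes were called by edgeR (0 also unadjusted), with 0.85 for Gabra6, 0.63 for Fat2, 0.95 for Neurod1, 0.33 for Car8, 0.082 for Cbln1 and 0.048 for Zic2. Leaving out pool 2, the only high one, fixes the direction of these values. Without pool 1 or pool 3, 3 of the 6 were called lower (400 and 573 of 17230 genes called).

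Across the 12 groups other than 28 m AL, all 6 genes differed by edgeR's test over the group coefficients, where 10.1% of all genes did. The edgeR adjusted p ran from 3.5e-07 for Fat2 and 1.49e-06 for Gabra6 to 0.00145 for Car8. Without pool 6 alone 2 of the 6 were called, where 1521 of 17230 genes were. A fit without pools 2, 5 and 6 leaves out the pools of these groups high in the 6 genes and keeps 1 pool of 12 m AL. It therefore cannot decide whether the groups differ.

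Of the 15 pairs of groups without 28 m AL, the other 13 gave 0 calls among the 6 genes by edgeR and by DESeq2, including the 6-month comparison of CR and AL and that of 12 m AL+LA and 12 m CR. In 6 of the 13 DESeq2 gave 1 to 6 of the genes no adjusted p. Ageing in AL from 6 to 12 months gave log2 fold changes of 0.81 to 1.77, all positive (2 of the 6 at an unadjusted p under 0.05, 0.0987% of all genes called). Without pool 2 of 6 m AL, 4 of the 6 genes were called higher at 12 months (31 of 17230 genes called). Leaving out this pool, the only high one of 6 m AL, fixes the direction of that count. Ageing in CR from 6 to 12 months gave −2.00 to −0.17 (2 unadjusted, 0.029% of all genes called), and from 6 to 28 months −3.19 to −0.045 (3 unadjusted, 0.0522%). From 12 to 28 months the changes in CR were −1.18 to 0.19 (0 unadjusted, 0.273%) and those in AL+LA −1.34 to 0.78 (1 unadjusted, 0.0174%).

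Among the diets at 28 months, CR>AL+LA set against CR had 4 of the 6 genes at an unadjusted p under 0.05 and a highest log2 fold change of 3.87, and AL+LA>CR had 2 and a highest change of 3.90, both changes being those of Gabra6. Gabra6 was at −0.18 in CR>AL+LA without pool 28 and at −0.18 in AL+LA>CR without pool 24, with 0 genes unadjusted in both. In CR>AL+LA without pool 28, Cbln1 went from 0.84 to 0.69, Zic2 from 0.67 to 0.36 and Fat2 from 1.645 to −0.60. AL>CR had 1, Gabra6 at 2.34 and at −1.28 without pool 19, and CR>AL, CR>CR+LA and AL+LA had 0. Pools 28, 24 and 19 held the highest Gabra6 of their groups, so leaving them out fixes the direction of these changes. edgeR called 0.0058% of all genes in CR>AL+LA, 0.116% in CR>AL and 0% in the other 4 of these comparisons, which share the 28 m CR libraries. The 2 tests of whether ageing differed between diets gave 0 calls by edgeR, each with 1 of the 6 genes at an unadjusted p under 0.05 (0% and 0.0871% of all genes called). For AL and CR from 6 to 12 months the differences were −3.23 to −1.001 on the log2 scale, and for CR and AL+LA from 12 to 28 months −0.49 to 1.25.

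At 28 months, where the genes were chosen, all 6 were called lower than in 28 m AL in CR (4.13% of all genes called, 1.22% lower), AL+LA (4.82% and 1.76%), AL>CR (4.85% and 1.96%), AL+LA>CR (4.78% and 1.82%), CR>AL (6.98% and 2.57%) and CR>CR+LA (4.45% and 1.55%). In CR>AL+LA 5 were (5.9% and 2.51%), all but Zic2 at −1.20. These calls are edgeR's, and they follow from the choice and from 28 m AL libraries common to the 7 comparisons. DESeq2 called 4 of the 6 in CR, AL>CR and CR>AL, 5 in AL+LA and CR>CR+LA, 3 in AL+LA>CR and 1 in CR>AL+LA. It called 689 (CR) to 1078 (CR>AL) of 17230 genes. The log2 fold changes were −9.46 to −1.20, those of Gabra6 running from −9.46 in AL+LA to −5.18 in CR>AL+LA. Between 28 m AL and the younger AL groups 0 of the 6 genes were called by edgeR (0 also unadjusted) or DESeq2, with 0.0987% of all genes called against 6 m AL and 0.517% against 12 m AL.

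Without pools 7 and 9, which leaves pool 8 as 28 m AL, 0 of the 6 genes were called by edgeR in any of the 7 diets (0 to 3 at an unadjusted p under 0.05), where 0.691% of all genes still were in CR, 1.57% in AL+LA, 3.17% in AL>CR, 1.3% in AL+LA>CR, 4.98% in CR>AL, 5.59% in CR>AL+LA and 1.15% in CR>CR+LA. Pool 8 alone against the 12 m AL pools had all 6 genes called lower (0.366% of all genes called), where the full groups had 0. Pools 7 and 9 are the 28 m AL pools high in these genes, so leaving them out fixes the direction of these counts and they are a description. In these fits the single pool is assumed to vary like the pools of the other group. Without pools 5 and 6 instead, 0 of the 6 genes were called between 28 m AL and 12 m AL (6 at an unadjusted p under 0.05, 0.226% of all genes called) and 0 between 12 m AL and 6 m AL (3 unadjusted, 0.0232%). A single fit of all 13 groups without pools 2, 5, 6, 7 and 9 leaves out the AL pools high in these genes. It keeps 1 pool of 12 m AL and 1 of 28 m AL. That fit therefore cannot decide whether the AL groups differ from the others in the 6 genes.

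The genes most like the 6 were looked for by Pearson's r with their mean log2(CPM + 1). Over all 39 libraries 56 of 17224 other genes had an r of at least 0.8, 37 of them with a name. Names were at hand only for genes of the study's supplementary tables. The highest r of all was 0.981, and Zranb1, the first gene with a name, had rank 9. Among the 10 named genes with the highest r were Zranb1 (0.932), Smg1 (0.925), Il16 (0.913), RGD1304810 (0.913), Snrk (0.906), Rif1 (0.903), Nrep (0.902) and Mtus1 (0.882). Over the 36 libraries without 28 m AL there were 33 such genes, 19 with a name, and the first 10 were the same but for Inadl (0.844) in place of Mtus1. Over the 30 libraries of other diets 1 gene reached 0.8, so this likeness rests on the high AL pools.

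Il16, which encodes a cytokine precursor with a neuronal form, stood out among them. It had 54.1, 40.7, 149, 79.6 and 88.2 CPM in pools 2, 5, 6, 7 and 9 against a median of 11.5 and a highest of 16.4 CPM in the other diets. Zranb1, a deubiquitinase, had 320, 283, 455, 543 and 467 CPM in these pools against a median of 182 and a highest of 224 CPM.

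The correlation that picked the 33 genes did not use the 28 m AL libraries, but the 6 genes it was taken with were chosen for their levels there. In 28 m CR 27 of the 33 were called lower than in 28 m AL, with a median log2 fold change of −1.46 where that of all genes was 0.0025, and 1.22% of all genes were called lower. In the other 6 diets 25 to 29 of the 33 were called lower, against the same 28 m AL libraries. Without pools 7 and 9 it was 0 of 33 in each of the 7 diets, with medians of −0.11 to 0.076. These 33 genes were chosen after their values were seen and their counts are a description.

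Gene lists of brain cell types and regions gave a wider view. They were written with earlier results known, and only genes that the study named for differences in these samples could be matched, so their counts are not independent evidence. Besides the 6 genes, 8 genes of granule cells and 12 of Purkinje cells were tested, each of them detected in all 39 libraries. All 8 granule cell genes stood above all 30 libraries of other diets in pools 6 and 7, 7 did in pool 9, 5 in pool 2 and 4 in pool 5. Of the 12 Purkinje cell genes, 12 did in pool 6, 11 in pool 9, 10 in pools 2 and 7 and 6 in pool 5. In pools 1, 3, 4 and 8 it was 3, 1, 1 and 2 granule cell genes and 4, 6, 1 and 1 Purkinje cell genes.

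The granule cell genes summed to 512 to 614 CPM in the other diets, to 581 to 634 CPM in pools 1, 3, 4 and 8 and to 704 to 1670 CPM in the 5 high pools. Etv1, a transcription factor gene, had 349, 232, 515, 584 and 449 CPM in pools 2, 5, 6, 7 and 9 (other diets 128 to 228 CPM). Gabrd, the GABA-A receptor subunit that pairs with alpha6 in granule cells, had 52.7, 28.5, 100, 77.7 and 90.8 CPM (27.3 to 52.9 CPM), so pools 2 and 5 were in the range of the other diets, while pool 1 was above it at 62.2 CPM. Grin2c, an NMDA receptor subunit, was above the 32.3 CPM maximum of the other diets in 8 of the 9 AL pools and so did not follow the 6 genes. Calb2, a calcium-binding protein gene also listed for the thalamus and the olfactory bulb, exceeded its maximum of 42.0 CPM in pools 6 and 7 only.

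The Purkinje cell genes summed to 852 to 1105 CPM in the other diets and to 1584 to 2496 CPM in the 5 high pools, but also to 1459, 1355 and 1202 CPM in pools 1, 3 and 8, with pool 4 at 1086 CPM. Calb1, a calcium-binding protein gene that is also on the dentate gyrus list, had 140, 112, 192, 261 and 178 CPM in pools 2, 5, 6, 7 and 9 (other diets 71.2 to 138 CPM). Itpr1, which Car8 binds, was above its maximum of 610 CPM in 7 of the 9 AL pools, with 811 CPM in pool 1 and 643 CPM in pool 3. Rgs8, a regulator of G-protein signalling, had 107, 110, 216, 95.7 and 100 CPM in the high pools and 87.1 CPM in pool 1 (27.5 to 78.8 CPM). A part of this list thus stood high in AL pools where the 6 genes did not.

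**Figure D5:**
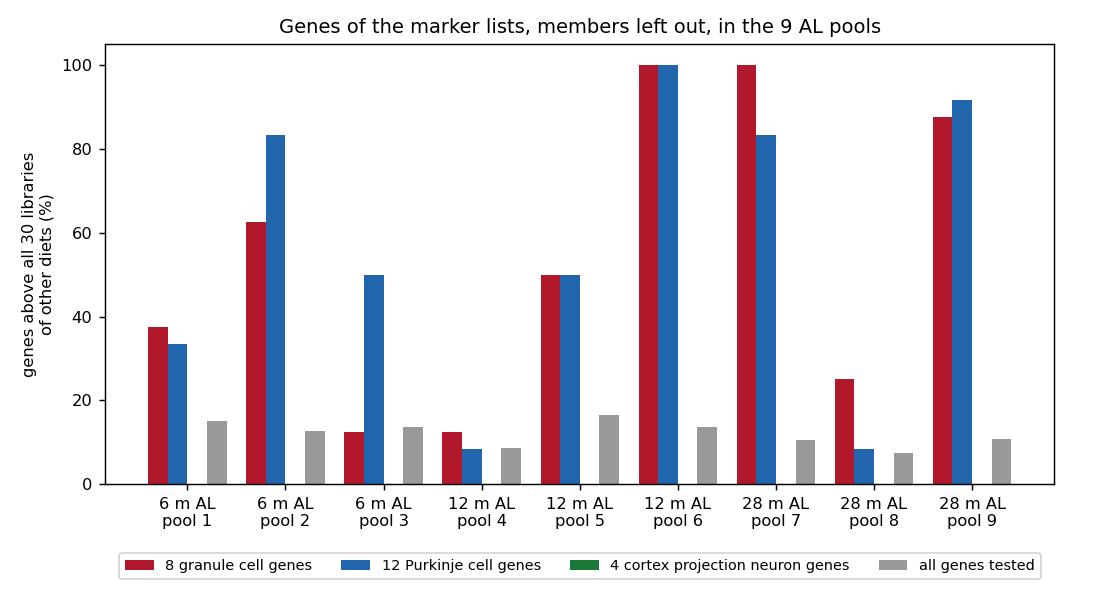
Share of the genes of a list, without the 6 genes, that stood above all 30 libraries of other diets in each of the 9 AL pools. Red bars are 8 granule cell genes, blue bars 12 Purkinje cell genes and grey bars all 17230 genes tested, and the 4 cortical projection neuron genes are at 0 in all 9 pools. In pools 6, 7 and 9 at least 7 of 8 granule cell genes and 10 of 12 Purkinje cell genes were above.

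The lists were also counted in the comparisons. Only genes that the study named for differences in these samples could be matched. The share of all genes is therefore no like background for these counts, which are a description. In 28 m CR 7 of 8 granule cell genes and 7 of 12 Purkinje cell genes were called lower than in 28 m AL (median log2 fold change −0.91 and −0.71, all genes 0.0025, 1.22% called lower), and none without pools 7 and 9. In 12 m CR 1 of 8 and 4 of 12 were called lower than in 12 m AL (medians −0.83 and −0.79, 1.43% of all genes called lower), and without pools 5 and 6 it was 1 and 0. In 12 m AL+LA 2 and 4 were called lower (1.47% of all genes), and 1 and 3 without these pools. In 6 m CR it was 0 and 3 (1.14%).

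None of the 4 cortical projection neuron genes was above all 30 libraries in any AL pool. Per pool 7.49% (pool 8) to 16.6% (pool 5) of all genes tested were above, so the lack of such a gene among 4 says little. These 4 could be matched only because the study named them for differences in these samples. Their r with the mean of the 6 genes was −0.546 to −0.361 over all 39 libraries. Fezf2 lay at 2.50 to 14.2 CPM in the 5 high pools against 2.43 to 22.6 CPM in other diets. Neurod6 was 24.2, 36.6, 35.01, 39.8 and 30.1 CPM in pools 2, 5, 6, 7 and 9, and below the 32.6 CPM minimum of the other diets in pools 1, 2, 8 and 9. Meis1, the 1 gene with a name on the list of Bergmann glia and mid-hindbrain genes, exceeded its maximum of 16.8 CPM in pools 5, 6, 7 and 9. The dentate gyrus list rested on Calb1 alone, also listed for Purkinje cells, which was above all 30 libraries in pools 2, 6, 7 and 9.

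Pde10a of the striatum was 225 CPM in pool 1, against at most 77.1 CPM in other diets, and 111 and 93.5 CPM in pools 8 and 9. Penk, also of the striatum, was above its maximum of 130 CPM in pool 1 only (136 CPM). Tcf7l2 of the thalamus was 90.9 CPM in pool 3 against at most 55.4 CPM, while Slc17a6 stayed within its range of 7.03 to 192 CPM. Of the 6 thalamus genes, 2 were above all 30 libraries in pools 3 and 6 and 1 in pools 7 and 9. In pools 6, 7 and 9 these were genes also on the granule or Purkinje cell list, and in pool 3 they were not. Cdhr1 of the olfactory bulb, Aqp1 of the choroid plexus, Dcn of the meninges and Mog of oligodendrocytes were not above all 30 libraries in any AL pool. Mog was below all 30 in 5 of the 9 AL pools, Penk in 3, Cdhr1 and Dcn in 2 each and Aqp1 in 1. Of all genes tested, 7.59% (pool 7) to 24.9% (pool 5) were below and 7.49% (pool 8) to 16.6% (pool 5) above. No gene of the hypothalamus and brain stem lists could be matched by name. The part of tissue composition in any of these levels was not tested.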

How the data were processed

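Cerebral cortex RNA of 39 pools of 2 rats was depleted of ribosomal RNA by the authors and sequenced as 75-bp forward reads on a SOLiD 5500xl. Bowtie, run in colour space, placed the reads on Rnor_5.0 (Ensembl 71), multiply mapping reads were dropped, and HTSeq-count gave reads per gene. Versions and the use of strand are not given in the sources used here. The deposited values are these unnormalized counts.

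The filter asked for 1 CPM or more in 3 or more of the 39 libraries, which 17230 of 26123 genes passed. Each pair of groups was fitted on its own 6 libraries with edgeR 4.0.16 in R 4.3.3 (TMM, glmQLFit and glmQLFTest), with Benjamini-Hochberg adjustment over all genes tested and calls at an adjusted p under 0.05. An SE is the log2 fold change divided by the square root of F. Levels are TMM-scaled CPM, and intervals are exact (Clopper-Pearson, 95%). Steps were tested on simulated counts, with the same spread for every gene and changed genes shifted alike in all pools of a group. Groups that split into high and low pools, as here, were not simulated.

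The 6 genes and the lists were chosen with earlier results of these data known. Named besides them are the first 4 tested genes of the granule and Purkinje cell lists, the first 2 of each other list, and the 10 named genes most like the 6, by Pearson's r of log2(CPM + 1), of which some are not reported here. Gene names (1672 identifiers) come from the study's supplementary tables. Upstream sequences are RefSeq's for GRCr8 and were used for no coordinates of the counts. Groups come from the sample titles. Alternatives were DESeq2 1.42.0, RLE size factors, no filter, a minimum of 10 counts in each library, 1 fit for all groups, other CPM scalings, pseudocounts of 0.5 and 5, and leaving out pools. Depth sets 1 read at 0.177 to 2.03 CPM.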

Additional observations from a re-analysis of the deposited data

How the results depend on the processing

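No paired analysis was possible because each pool number belongs to 1 group only. Among the alternative counts of called genes, 315 stayed within 1.5 times and 56 did not, and levels moved by less than the spread between pools in 154 cases and by more in 2 (Car8 in 12 m CR and Zic2 in 28 m CR, with library size from reads on genes alone). RLE size factors moved no count of calls by more than 1.5 times. Leaving out sets of 12 m AL pools, or 5 pools at once, was added after seeing the data, and the cause of the changes below was not tested beyond these pools.

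Leaving out pools 7 and 9 gave 0 called genes in each of the 7 diets set against 28 m AL and 6 in 28 m AL against 12 m AL. Leaving out pools 5 and 6 from the 12-month comparisons, or pools 2, 5 and 6 from the test over 12 groups, keeps 1 pool of 12 m AL. A single fit of all 13 groups was also run without pools 2, 5, 6, 7 and 9. These are all pools high in these genes, so leaving them out fixes the direction of the calls. The log2 fold change in 12 m CR without pools 5 and 6, and in that single fit, turned to 0.57 and 0.57 for Cbln1, 0.20 and 0.20 for Car8, and 0.47 and 0.48 for Gabra6. In 12 m AL+LA it turned to 0.28 and 0.28 for Car8, 0.098 and 0.098 for Zic2, and 0.28 and 0.32 for Gabra6.

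DESeq2 called 3 genes in AL+LA>CR, 1 in CR>AL+LA and 4 or 5 in each other diet against 28 m AL. It called 2 in 12 m CR and 3 in 12 m AL+LA against 12 m AL. With at least 10 counts in every library only Car8, Neurod1 and Zic2 could be tested. In each diet against 28 m AL 3 were called (2 in CR>AL+LA), where 445 (CR) to 879 (CR>AL) of 7008 genes were. In 12 m CR and 12 m AL+LA against 12 m AL 3 were called (258 and 352 of 7008 genes). Over the 12 groups 3 were called (1289 of 7008 genes). Without a filter, 5 genes were called higher at 12 months of AL and 1 at 28 months, both against 6 m AL (75 and 190 of all genes). CR had 1 lower at 12 months and 1 at 28 months than at 6 months (232 and 106 of all genes). In 6 m CR 5 were lower than in 6 m AL (791 of all genes). AL+LA>CR and CR>AL+LA had 2 each higher than 28 m CR (33 and 55 of all genes). The AL and CR difference in ageing from 6 to 12 months had 5 (132 of all genes). All 13 groups in 1 fit gave 1 in 6 m CR against 6 m AL (1375 of all genes).

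Leaving out 1 pool at a time gave 3 to 6 called genes in CR against 28 m AL. The 3 came without pool 18, where 135 of 17230 genes were called. In AL+LA>CR it was 4 to 6 (4 without pool 23, 336 of 17230 genes called). In CR>AL+LA it was 2 to 6 (2 without pool 30, 466 genes) and in CR>CR+LA 4 to 6 (4 without pool 33, 250 genes). Both 12 m CR and 12 m AL+LA against 12 m AL had 2 to 6, as had the test over the 12 groups. The 2 came without pool 6 in each, where 381, 494 and 1521 of 17230 genes were called. The range was 0 to 3 in 28 m AL against 12 m AL (3 without pool 6, 163 genes). It was 0 to 4 in 12 m AL against 6 m AL (4 without pool 2, 31 genes). In 6 m CR against 6 m AL it was 0 to 3 (3 without pool 1 or 3, 400 and 573 genes). CR at 12 or at 28 months against 6 months gave 0 to 1 (1 without pool 10, 13 and 19 genes). Genes of low counts, Gabra6 above all, are limited by depth in the 30 libraries of other diets, where 3 reads were its median.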
